A study of Mus musculus with 10 samples.

Results

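The 10 genes described here encode factors that switch on, or hold off, the gene programs of late meiotic prophase and of spermatids: *Mybl1*, *Tcfl5*, *Zfp541*, *Rfx2*, *Rfx3*, *Sox30*, *Crem*, *Fhl5*, *Fhl4* and *Pou5f2*. They were chosen by name for their known roles, with earlier results of these data already known. All 10 were found both among the 28125 genes of the scRNA-seq matrix and among the 30657 nuclear genes of the scATAC-seq matrix. Nuclei of mouse testes were profiled for RNA and open chromatin at once, with testes taken from wild-type mice of the C57BL/6J strain at 11, 17 and 25 days post-partum (dpp) and from *Cre/+* and *Nfya-CKO* mice at 8 weeks of age. The *Nfya-CKO* mice are *Nfya* fl/fl; *Stra8-Cre* animals, in which the Cre recombinase removes part of *Nfya* in premeiotic germ cells, while the *Cre/+* mice carry the same Cre. NFYA is a subunit of NF-Y, which binds the letters CCAAT in promoters. The study asked whether NFYA opens meiotic promoters before meiosis begins. Each condition and assay was 1 library, and the matrices hold 1 value per cell population, pooled over libraries by the authors, so the values have no replicate spread and no test between populations was possible.

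The 13 populations are undifferentiated and differentiating spermatogonia (SpG), preleptotene spermatocytes (pL), an early leptotene to zygotene group (eL/L/Z), a later leptotene, zygotene and early pachytene group (L/Z/eP), spermatocytes of the middle and late pachytene stages (mP/lP) and of diplotene (D), spermatids that are round (RS) or elongating (ES), spermatogonia of the *Nfya-CKO* library, Sertoli cells, other somatic cells and a group called unknown. RNA levels are mean UMIs per 10000 UMIs of a cell, a UMI being a tag that marks 1 captured RNA molecule. They are relative to all RNA of the cell. The populations held from 99 (unknown) to 8107 (L/Z/eP) scRNA-seq cells, with medians of 1525 (other somatic) to 18361 (*Nfya-CKO* spermatogonia) UMIs per cell.

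In the mouse testis, the transcription factor A-MYB, made from *Mybl1*, turns on the pachytene program, including the piRNA pathway, and it works with TCFL5, a basic helix-loop-helix protein. ZFP541 acts in pachytene spermatocytes in a complex with KCTD19 and the histone deacetylases HDAC1 and HDAC2. RFX2 and RFX3 are winged-helix proteins that bind X-box sites of cilium genes, RFX2 being required for round spermatids to mature. SOX30 and CREM act in spermatids, where CREM drives genes such as protamines. FHL5, also called ACT, is a LIM-domain co-activator of CREM, FHL4 is its close relative, and POU5F2, also called SPRM-1, is a POU-domain factor of the testis.

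Because NF-Y, RFX, TCFL5 and CREM all bind short DNA words, the promoters of members with such words are shown first. RefSeq (GRCm38.p6, the build of mm10) gave promoter windows of 250 bases before to 50 bases after the start for 8 of the 10 members, with *Fhl5* having 2 windows. No window was available for *Mybl1* and *Crem*. The stretches below are the 250 bases before the start, written 5′ to 3′ on the strand of the gene. Capitals mark CCAAT (NF-Y), TGACG (part of the cAMP-response element, CRE), GTTGCC (part of the RFX site) and CACGCG (TCFL5), each read on both strands, so that ATTGG is CCAAT on the other strand. *Rfx2* is shown because it holds words of 3 kinds, *Sox30* and *Fhl4* because each holds both CCAAT and CACGCG, and *Fhl5* because its chromatin changed most among the members.

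Rfx2, chr17:56831009-56831258, minus strand: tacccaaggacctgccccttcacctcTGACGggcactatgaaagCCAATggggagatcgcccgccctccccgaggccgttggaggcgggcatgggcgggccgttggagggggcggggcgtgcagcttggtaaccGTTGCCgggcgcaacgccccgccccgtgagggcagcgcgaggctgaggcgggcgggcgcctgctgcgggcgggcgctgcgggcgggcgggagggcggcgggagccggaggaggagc
Sox30, chr11:45980060-45980309, plus strand: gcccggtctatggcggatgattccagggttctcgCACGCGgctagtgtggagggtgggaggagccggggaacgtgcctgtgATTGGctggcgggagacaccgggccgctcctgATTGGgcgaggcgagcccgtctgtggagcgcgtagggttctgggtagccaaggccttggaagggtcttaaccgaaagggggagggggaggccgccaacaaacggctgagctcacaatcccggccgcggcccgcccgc
Fhl4, chr10:85102496-85102745, minus strand: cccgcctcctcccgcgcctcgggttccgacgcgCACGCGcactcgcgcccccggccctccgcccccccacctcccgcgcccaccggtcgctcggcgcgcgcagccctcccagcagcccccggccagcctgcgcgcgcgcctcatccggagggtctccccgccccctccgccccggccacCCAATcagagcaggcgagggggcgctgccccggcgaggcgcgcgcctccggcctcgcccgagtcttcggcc
Fhl5, chr4:25242853-25243102, minus strand: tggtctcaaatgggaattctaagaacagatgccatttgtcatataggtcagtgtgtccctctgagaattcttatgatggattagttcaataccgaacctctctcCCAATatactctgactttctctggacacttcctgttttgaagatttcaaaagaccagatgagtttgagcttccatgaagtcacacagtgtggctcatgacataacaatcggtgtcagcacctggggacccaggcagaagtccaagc

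CCAAT was found in windows of 4 of the 8 members, which have 9 windows together, and in 37.4% of all 32851 promoter windows of the same length. Here and below, members are counted as genes and the shares are of windows. For *Fhl5*, CCAAT was in only 1 of its 2 windows, the one shown. In the stretches above it begins 206 bases before the start of *Rfx2*, 169 and 137 bases before that of *Sox30*, 71 bases before that of *Fhl4* and 146 bases before this start of *Fhl5*. CACGCG was found in 3 of the 8 members (*Tcfl5*, *Sox30* and *Fhl4*) against 9.27% of all windows. GTTGCC was found in 2 members, *Rfx2* and *Rfx3*, against 12.5% of all windows, the one of *Rfx3* lying 32 bases after its start. The shorter TGACG was found in *Rfx2* only, against 20.8%, and no member window held the full CRE TGACGTCA, which was in 1.79% of all windows. The short MYB core AACNG occurred in all 8 members and in 80.3% of all windows, and it can overlap the RFX word, as it does in *Rfx2*. These are matches of letters, with no measurement of binding.

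Of the 45250 scRNA-seq cells, 10571 (23.4%) carry a barcode that also names a cell of another library, and 3820 such barcodes join the *Cre/+* and *Nfya-CKO* libraries, against 92 in scATAC-seq. The cell with more UMIs of such a group had a median of 15806 UMIs and the others 943, and 94.8% of the first but 0.777% of the second also appear as a scATAC-seq cell of their own library. The cells with fewer UMIs made up 56.9% of ES, 51.8% of other somatic cells, 21.8% of eL/L/Z, 19.2% of unknown and 15.6% of differentiating SpG, but only 0 to 3.18% of each other population. For 677 of the 680 such ES cells, the higher cell was an other somatic cell of the *Nfya-CKO* library, and for 144 of the 145 in differentiating SpG it was a spermatogonium of that library. RNA values of ES, differentiating SpG, eL/L/Z and other somatic cells rest partly on these cells. The matrices pool cells, so values without them could not be computed and their part in the results was not tested. In scATAC-seq such cells were 0 to 3.23% of a population.

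**Figure D1:**
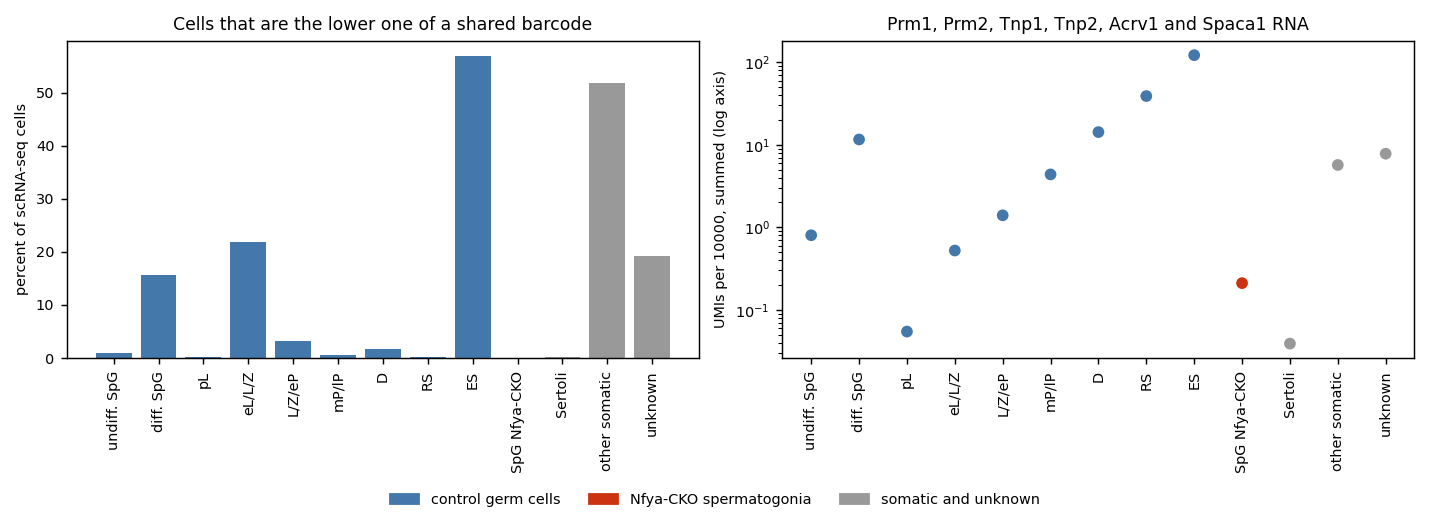
Left, percent of the scRNA-seq cells of each population whose barcode is shared with a cell of more UMIs in another library; right, summed RNA of 6 spermatid markers in UMIs per 10000 on a log axis, 1 point per population. Elongating spermatids (56.9%) and other somatic cells (51.8%) stand highest on the left, and on the right differentiating SpG (11.6) stand far above undifferentiated SpG (0.802) and pL (0.0545).

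Spermatid RNA was also present outside spermatids. The 6 spermatid markers *Prm1*, *Prm2*, *Tnp1*, *Tnp2*, *Acrv1* and *Spaca1* summed to 122 in ES and 38.9 in RS, to 14.2 in D, 4.37 in mP/lP, 1.40 in L/Z/eP and 0.523 in eL/L/Z, to 11.6 in differentiating SpG and to 5.69 in other somatic cells. The same sum was 0.802 in undifferentiated SpG, 0.211 in *Nfya-CKO* spermatogonia, 0.0545 in pL and 0.0390 in Sertoli cells, and no marker was at 0 in any of these except *Prm2* in pL. Differentiating SpG were 84.5% *Cre/+* cells, whereas pL cells came mostly from 11 dpp (59.3%) and 17 dpp (38.2%) testes and Sertoli cells from 11 dpp (87.8%), libraries that held 0 RS and 0 ES cells. These marker values move with the spermatid members, both in differentiating SpG and from eL/L/Z to D, and their part was not tested. Of 15 germ cell markers, 12 were highest in their own control population, among them *Zbtb16* in undifferentiated SpG, *Piwil1* in mP/lP, *Acrv1* in RS and *Prm1* in ES. The other 3 were *Kit*, a marker of differentiating SpG that was 2.09 in pL and 1.56 in differentiating SpG, *Sycp3*, highest in mP/lP, and *Ccna1*, highest in D. The Sertoli cell markers *Sox9* and *Wt1* summed to 20.8 in Sertoli cells, 4.35 in ES and 2.98 in eL/L/Z, against 0.636 to 1.84 in the other control germ cell populations.

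The 10 members were highest late in the lineage. Among the 9 control germ cell populations, *Mybl1*, *Tcfl5* and *Rfx2* peaked in mP/lP, *Zfp541* in L/Z/eP, *Pou5f2* in D, *Rfx3*, *Sox30*, *Crem* and *Fhl5* in RS, and *Fhl4* in ES. Of the 15250 genes with a mean of at least 0.05 UMIs per 10000, 11.3% peaked in mP/lP, 18.2% in RS and 14.96% in ES. A further 4.91% peaked in L/Z/eP and 3.298% in D. No member peaked in undifferentiated SpG (19.2% of these genes), differentiating SpG (5.66%), pL (17.8%) or eL/L/Z (4.73%). Because the members were chosen for roles in late stages, their late peaks were partly fixed by that choice. The order of neighbouring populations below is that of single pooled values, and which neighbours differ beyond their spread is not known. Stage and library cannot be told apart either, since L/Z/eP cells are 93.5% from 25 dpp, RS cells 77.0% from *Cre/+* and undifferentiated SpG 92.0% from juvenile testes.

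**Figure D2:**
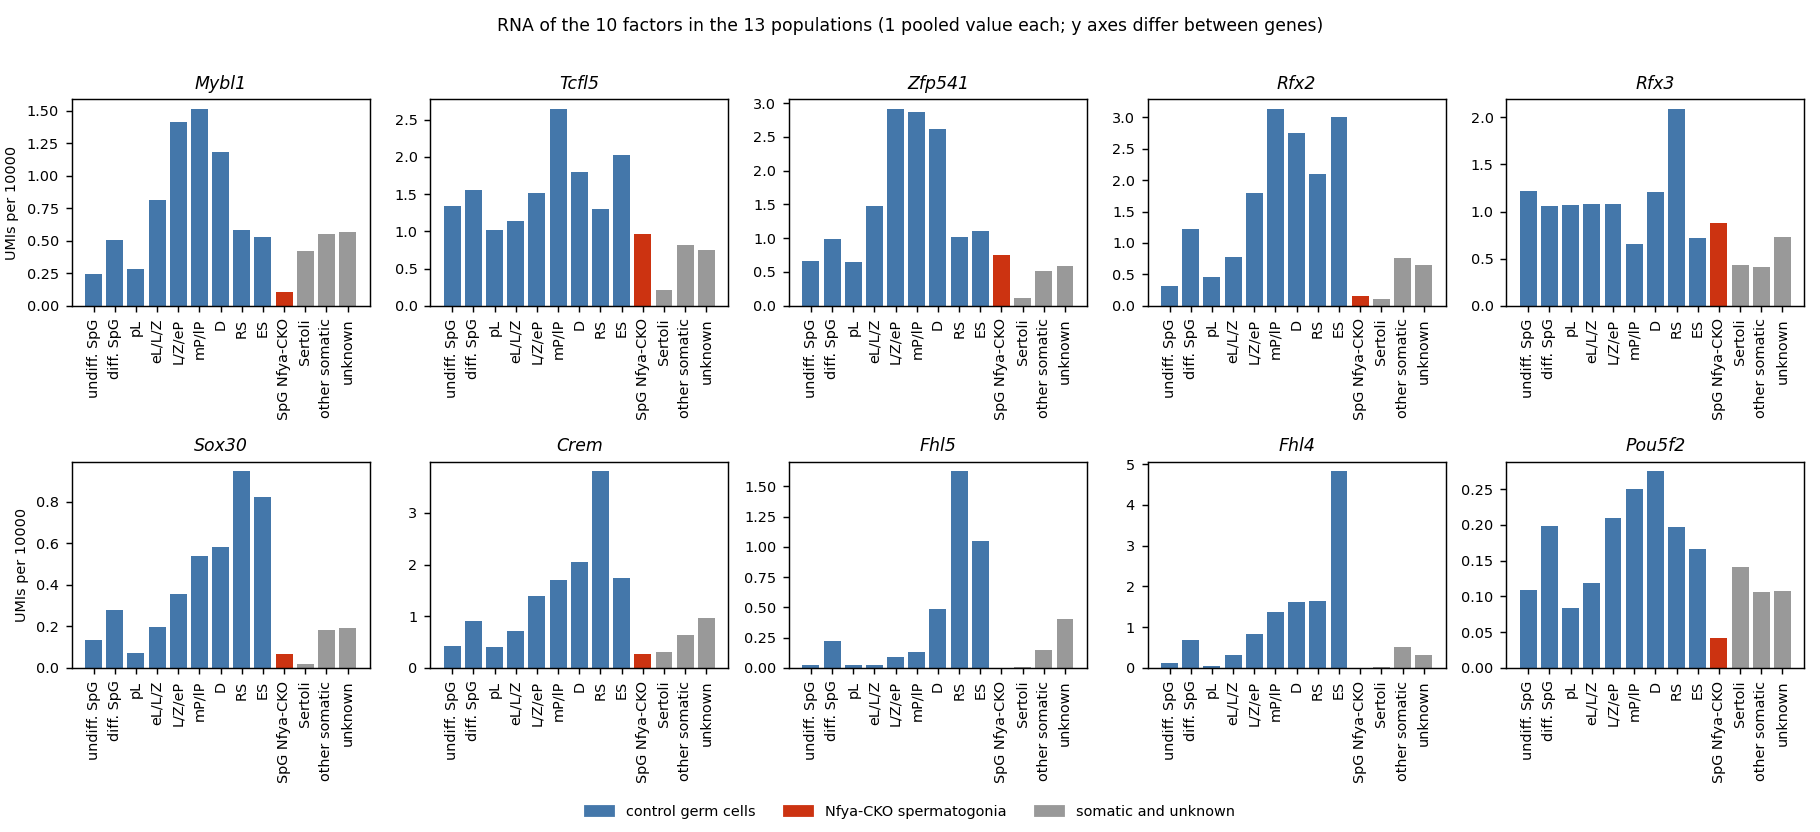
RNA of each member in UMIs per 10000 (y axis, starting at 0 and different for each gene) in the 13 populations (x axis); each bar is 1 pooled value, blue for control germ cells, red for *Nfya-CKO* spermatogonia and grey for somatic and unknown cells. *Mybl1* and *Zfp541* form a dome over L/Z/eP to D, *Crem* and *Fhl5* rise to RS, *Fhl4* is highest in ES at 4.82, and the red bars are low in all but *Tcfl5*, *Zfp541* and *Rfx3*.

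*Mybl1* RNA rose early in prophase and fell in spermatids. It was 0.248 in undifferentiated SpG, 0.507 in differentiating SpG, 0.287 in pL, 0.811 in eL/L/Z, 1.42 in L/Z/eP, 1.51 in mP/lP, 1.19 in D, 0.583 in RS and 0.530 in ES. The value of eL/L/Z was thus 2.36-fold that of pL and the value of mP/lP 4.64-fold that of undifferentiated SpG (ratios of value + 0.1, here and below), while L/Z/eP and mP/lP were 1.06-fold apart. In Sertoli cells, where spermatid markers were lowest, *Mybl1* stood at 0.421, above its level in undifferentiated SpG.

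*Zfp541* had nearly the same shape. Its RNA was 0.656 in undifferentiated SpG, 0.989 in differentiating SpG, 0.640 in pL, 1.48 in eL/L/Z, 2.91 in L/Z/eP, 2.86 in mP/lP, 2.62 in D, 1.01 in RS and 1.11 in ES. It was flat from L/Z/eP to D and then fell 2.45-fold from D to RS, the steepest fall of any member at that step. Sertoli cells had 0.110. *Mybl1* and *Zfp541* were each among the 3 genes most like the other by Pearson r of log2 (value + 0.1) levels. Their r was 0.986 over the 9 control germ cell populations, which share libraries and depth. With Spearman's rho, or with all 13 populations, *Mybl1* was not among the 3 genes most like *Zfp541*.

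*Tcfl5* RNA was present in all germ cells and highest in pachytene. It was 1.34 in undifferentiated SpG, 1.55 in differentiating SpG, 1.02 in pL, 1.14 in eL/L/Z, 1.51 in L/Z/eP, 2.64 in mP/lP, 1.80 in D, 1.30 in RS and 2.03 in ES. Its lowest value in control germ cells, in pL, was therefore 38.5% of its highest, a much shallower profile than that of *Mybl1*, whose lowest was 16.4% of its highest. Where *Mybl1* had already reached its plateau in L/Z/eP, *Tcfl5* was 1.70-fold higher in mP/lP than in L/Z/eP. In Sertoli cells *Tcfl5* was 0.208.

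*Rfx2* and *Rfx3*, which recognise similar sites, had opposite profiles through pachytene. *Rfx2* RNA was 0.318 in undifferentiated SpG, 1.22 in differentiating SpG, 0.454 in pL, 0.774 in eL/L/Z, 1.79 in L/Z/eP, 3.13 in mP/lP, 2.75 in D, 2.09 in RS and 3.01 in ES. It was 7.73-fold higher in mP/lP than in undifferentiated SpG, and stayed high in spermatids. *Rfx3* RNA was 1.22, 1.06, 1.07, 1.08 and 1.08 in the same order up to L/Z/eP, then 0.654 in mP/lP, 1.21 in D, 2.08 in RS and 0.717 in ES. *Rfx3* was thus the only member that was lower in mP/lP than in undifferentiated SpG, at 0.573-fold, and it was 2.90-fold higher in RS than in mP/lP.

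*Sox30* RNA climbed at each step from pL to RS. It was 0.135 in undifferentiated SpG, 0.279 in differentiating SpG, 0.0703 in pL, 0.199 in eL/L/Z, 0.354 in L/Z/eP, 0.539 in mP/lP, 0.582 in D, 0.946 in RS and 0.822 in ES. Its RS level was 6.14-fold its pL level. Sertoli cells held 0.0209.

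*Crem* RNA climbed in the same way but jumped after diplotene. It was 0.433 in undifferentiated SpG, 0.902 in differentiating SpG, 0.406 in pL, 0.718 in eL/L/Z, 1.40 in L/Z/eP, 1.69 in mP/lP, 2.05 in D, 3.80 in RS and 1.73 in ES. RS were 1.82-fold above D and 2.18-fold above mP/lP, and ES were 2.13-fold below RS. *Crem* makes both activators and repressors from different starts and splice forms, which a value per gene does not separate.

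Its co-activator gene *Fhl5* was nearly silent until diplotene. *Fhl5* RNA was 0.0234 in undifferentiated SpG, 0.227 in differentiating SpG, 0.0261 in pL, 0.0246 in eL/L/Z, 0.0940 in L/Z/eP, 0.133 in mP/lP, 0.484 in D, 1.62 in RS and 1.05 in ES. The ratio of RS over mP/lP was 7.41, the highest of the members, and that of RS over D was 2.95. Its value stood higher in differentiating than in undifferentiated SpG, as did that of *Prm1*, which was 3.94 against 0.155 there.

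*Fhl4* was the one member that peaked in elongating spermatids. Its RNA was 0.125 in undifferentiated SpG, 0.678 in differentiating SpG, 0.0529 in pL, 0.309 in eL/L/Z, 0.829 in L/Z/eP, 1.37 in mP/lP, 1.63 in D, 1.65 in RS and 4.82 in ES. Levels in D and RS were 1.01-fold apart, and ES stood 2.82-fold above RS. The ES value rests on 1195 cells, most of which share a barcode with a deeper cell. *Pou5f2* was low throughout, with 0.109 in undifferentiated SpG, 0.198 in differentiating SpG, 0.0837 in pL, 0.119 in eL/L/Z, 0.210 in L/Z/eP, 0.250 in mP/lP, 0.274 in D, 0.197 in RS and 0.166 in ES. Its highest value in control germ cells was 2.04-fold its lowest, and Sertoli cells held 0.141, which is within that range.

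Counted by size, 6 of the 10 members were at least 2-fold higher in mP/lP than in undifferentiated SpG, against 13.9% of all genes tested, and none was 2-fold lower, against 20.8%. These were *Mybl1*, *Zfp541*, *Rfx2*, *Sox30*, *Crem* and *Fhl4*, with ratios of 2.72 (*Sox30*) to 7.73 (*Rfx2*). The median ratio of the members was 3.04 and that of all genes 0.908. Members were chosen for roles in late stages, so this direction was partly fixed by that choice. With a pseudocount of 0.5 in place of 0.1, 5 members passed 2-fold at this step. The log2 ratio of *Sox30* then went from 1.44 to 0.71 and that of *Rfx2* from 2.95 to 2.15. From L/Z/eP to mP/lP no member passed 2-fold, against 1.38% of all genes, the highest ratios being those of *Rfx2* (1.71) and *Tcfl5* (1.70). Earlier, *Mybl1*, *Zfp541* and *Fhl4* were at least 2-fold higher in eL/L/Z than in pL, 3 of 10 against 4.41% of all genes. *Rfx2* and *Fhl4* were so in L/Z/eP over eL/L/Z, 2 of 10 against 5.45%, while *Zfp541* reached 1.91-fold and *Crem* 1.83-fold there. The eL/L/Z values are among those that rest partly on cells with shared barcodes. From pL to eL/L/Z the spermatid marker sum also went from 0.0545 to 0.523 and the Sertoli cell marker sum from 1.45 to 2.98, and the part of these in the result was not tested.

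Leaving pachytene, the members divided. *Fhl5* (7.41-fold), *Rfx3* (2.90-fold) and *Crem* (2.18-fold) were at least 2-fold higher in RS than in mP/lP, 3 of 10 against 17.6% of all genes. *Mybl1* (2.36-fold) and *Zfp541* (2.67-fold) were at least 2-fold lower, 2 of 10 against 9.36%, and *Tcfl5* just missed that size at 1.96-fold lower. The median ratio of the members was 1.02, beside 0.947 for all genes. From RS to ES *Fhl4* was the only member at least 2-fold higher (1 of 10 against 10.1%), and *Rfx3* (2.67-fold) and *Crem* (2.13-fold) were lower (2 of 10 against 10%). Cells with fewer UMIs of a shared barcode are 56.9% of ES, and Leydig cell markers *Cyp17a1* and *Insl3* summed to 4.62 there against 0.689 in RS, and the Sertoli cell markers to 4.35 against 0.723. Their part was not tested.

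**Figure D3:**
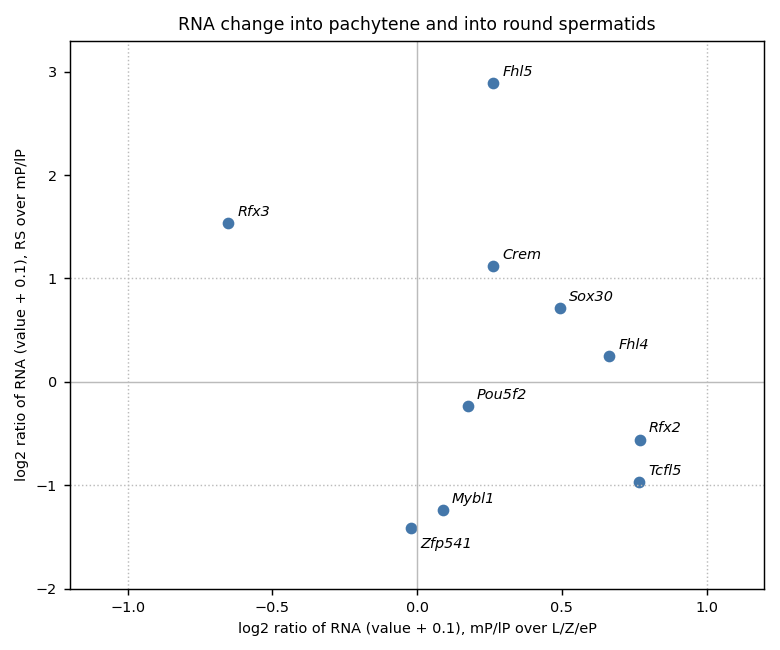
Log2 ratio of RNA (value + 0.1) of mP/lP over L/Z/eP (x axis) against RS over mP/lP (y axis), 1 point per member; dotted lines mark 2-fold. *Fhl5*, *Rfx3* and *Crem* lie above the upper dotted line, *Mybl1* and *Zfp541* below the lower one, and no member passes 2-fold on the x axis.

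Partner and target genes were counted in the same way. Among 7 partner genes, *Brdt* (4.85-fold), *Kctd19* (16.2-fold) and *Gtf2a1l* (4.41-fold) were at least 2-fold higher in mP/lP than in undifferentiated SpG, against 13.9% of all genes. *Kctd19*, the ZFP541 partner, went from 0.0677 in pL to 4.49 in mP/lP, while the deacetylase genes *Hdac1* (1.38 to 1.65 from undifferentiated SpG to mP/lP) and *Hdac2* (1.01 to 0.532) differed by less than 2-fold. *Kif17*, a kinesin that carries FHL5 (ACT) in spermatids, was 6.58-fold higher in RS than in mP/lP, beside 7.41-fold for *Fhl5* itself. The *Fhl5* ratio depended on the pseudocount, its log2 value of 2.89 becoming 3.52 with 0.01 and 1.75 with 0.5. Of 6 textbook A-MYB targets, 3 were at least 2-fold higher in mP/lP than in undifferentiated SpG, against 13.9% of all genes, with *Piwil1*, a PIWI protein of the pachytene piRNA pathway, going from 0.712 to 11.4 and *Tdrd6* from 0.101 to 2.75. *Piwil1* and *Tdrd6* were also the 2 of the 6 past 2-fold in mP/lP over L/Z/eP, against 1.38% of all genes. At this step *Mybl1* itself was 1.06-fold apart. *Piwil1* and *Ccna1* (3.20-fold in mP/lP over undifferentiated SpG) also served above as markers of mP/lP, so their direction there was fixed by that choice. Of 9 textbook CREM targets, all 9 were at least 2-fold higher in RS than in mP/lP, against 17.6% of all genes, with a median ratio of 7.18 beside 0.947 for all genes, and 8 were again 2-fold higher in ES than in RS, against 10.1%, where *Crem* was 2.13-fold lower. *Prm1*, *Prm2*, *Tnp1* and *Tnp2* of this list are also spermatid markers above, so their direction in spermatids was fixed by that choice, while the other 5 had RS over mP/lP ratios of 4.55 (*Pgk2*) to 8.00 (*Smcp*). The RFX2 target *Hist1h1t*, the testis linker histone H1t, was at most 0.0300 in any control germ cell population and was below the limit for counting.

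Chromatin accessibility per gene changed far less than RNA for most members. The values are the signal per gene that the authors deposited, scaled here to a sum of 1000000 per population. The study's methods define promoter accessibility as mean coverage around the start site, but do not say whether the deposited values per gene were made in that way. Ratios of accessibility are of value + 1. Mitochondrial genes take from 31.2% of the signal in pL to 64.5% in other somatic cells, so scaling over all genes or over nuclear genes gives different profiles, and both are given. With all genes, only *Fhl5* of the 10 members was at least 2-fold more accessible in mP/lP than in undifferentiated SpG, against 2.47% of all genes, and none was 2-fold less accessible, against 22.3%. Scaled over nuclear genes it was again *Fhl5* alone, against 8.76%, and again none was 2-fold lower, against 13.1%. Below that size the direction depended on the scaling for *Mybl1*, *Tcfl5*, *Rfx3* and *Fhl4*, which were lower in mP/lP than in undifferentiated SpG with all genes and higher with nuclear genes.

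*Fhl5* chromatin opened late. Its nuclear-scaled accessibility was 1.99 in undifferentiated SpG, 5.74 in differentiating SpG, 1.79 in pL, 2.35 in eL/L/Z, 6.87 in L/Z/eP, 8.79 in mP/lP, 17.7 in D, 41.2 in RS and 18.1 in ES. Scaled over all genes the RS value was 24.6 and the undifferentiated SpG value 1.18, a ratio of 11.7. The *Fhl5* value was higher in differentiating than in undifferentiated SpG, as were nuclear-scaled values of *Prm1*, *Prm2* (9.10 against 2.09), *Tnp1*, *Tnp2* and *Acrv1*. That of *Spaca1* was not (20.4 against 23.5), and the part of spermatid signal in differentiating SpG was not tested. RNA and accessibility of *Fhl5* peaked in the same population, and the Pearson r between their log2 levels over the 9 control germ cell populations was 0.951 with nuclear scaling and 0.984 with all genes. With nuclear scaling, *Mybl1*, *Tcfl5* and *Rfx2* also had both peaks in 1 population, mP/lP, whereas with all genes their accessibility was highest in pL, RS and differentiating SpG. These nuclear-scaled peaks lay only 1.04-fold (*Mybl1*), 1.002-fold (*Tcfl5*) and 1.01-fold (*Rfx2*) above the next population. Of all genes, 8.13% had their highest nuclear-scaled accessibility in mP/lP. The r of the other members ran from -0.17 (*Rfx3*) to 0.905 (*Mybl1*) with nuclear scaling and from -0.61 (*Mybl1*) to 0.731 (*Sox30*) with all genes. It changed sign with the scaling for *Mybl1*, *Tcfl5*, *Zfp541*, *Rfx2*, *Rfx3* and *Fhl4*. Both assays were run on the same nuclei, but the cells kept differ, as with 1195 scRNA-seq and 124 scATAC-seq cells in ES. The r is thus a description only.

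The other members already had signal in undifferentiated SpG, with nuclear-scaled values from 33.3 (*Pou5f2*) to 136 (*Rfx3*), against 1.99 for *Fhl5*. *Fhl4* had nuclear-scaled values from 82.6 in undifferentiated SpG to 99.98 in eL/L/Z, with 92.4 in ES, a range of 1.21-fold, while its RNA spanned 32.2-fold over the same populations. *Rfx3* spanned 1.30-fold, *Mybl1* 1.38-fold, *Tcfl5* 1.46-fold and *Rfx2* 1.80-fold. With all genes, *Fhl4* spanned 1.72-fold, *Rfx3* 1.90-fold, *Mybl1* 1.45-fold, *Tcfl5* 1.75-fold and *Rfx2* 1.72-fold. *Crem* went from 64.1 in undifferentiated SpG to 111 in RS and 134 in ES. *Sox30* went from 76.2 in undifferentiated SpG and 74.9 in pL to 142 in mP/lP, 126 in RS and 196 in ES. *Zfp541* went from 37.9 in undifferentiated SpG to values of 67.3 and 62.2 in L/Z/eP and mP/lP, where its RNA was highest, but had its highest accessibility, 111, in ES. With all genes *Zfp541* had 22.5 in undifferentiated SpG, 38.8 in pL, 24.4 in L/Z/eP, 24.7 in mP/lP and 62.7 in ES, so that its values where RNA was highest lay below that of pL. *Sox30* with all genes had 45.3 in undifferentiated SpG, 51.5 in pL, 56.2 in mP/lP and 110.4 in ES, and *Crem* had 38.0 in undifferentiated SpG, 62.9 in pL, 66.3 in RS and 75.5 in ES. The ES values come from 124 scATAC-seq cells.

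*Pou5f2* was less accessible from differentiating SpG to eL/L/Z than in undifferentiated SpG, D and RS. Its nuclear-scaled accessibility was 33.3 in undifferentiated SpG, 14.8 in differentiating SpG, 14.3 in pL and 15.5 in eL/L/Z, and then 28.0 in L/Z/eP, 30.5 in mP/lP, 39.8 in D and 43.9 in RS. With all genes the same populations had 19.8, 9.60, 9.86, 8.49, 10.1, 12.1, 20.4 and 26.2. The lower values from differentiating SpG to eL/L/Z were thus present under both scalings. With all genes L/Z/eP and mP/lP stayed near these lower values, whereas with nuclear genes they lay closer to undifferentiated SpG.

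Sertoli cells separated the members further. *Tcfl5* had 21.7 there against 91.3 in mP/lP, *Zfp541* 14.9 against 62.2, *Sox30* 36.0 against 142, *Pou5f2* 10.3 against 30.5 and *Fhl5* 1.47 against 8.79, all nuclear-scaled. *Mybl1*, *Rfx2*, *Rfx3*, *Crem* and *Fhl4* had between 82.0 (*Fhl4*) and 127 (*Rfx3*) in Sertoli cells, against 98.6 (*Fhl4*) to 174 (*Rfx3*) in mP/lP. *Mybl1* thus had 106 in Sertoli cells, beside its RNA of 0.421 there. With all genes, *Mybl1* (51.9 against 47.1), *Crem* (47.6 against 47.0) and *Fhl4* (40.2 against 39.1) were instead slightly higher in Sertoli cells than in mP/lP. *Rfx2* (48.0 against 63.7), *Rfx3* (62.2 against 69.0), *Tcfl5*, *Zfp541*, *Sox30*, *Pou5f2* and *Fhl5* were lower in Sertoli cells under both scalings.

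**Figure D4:**
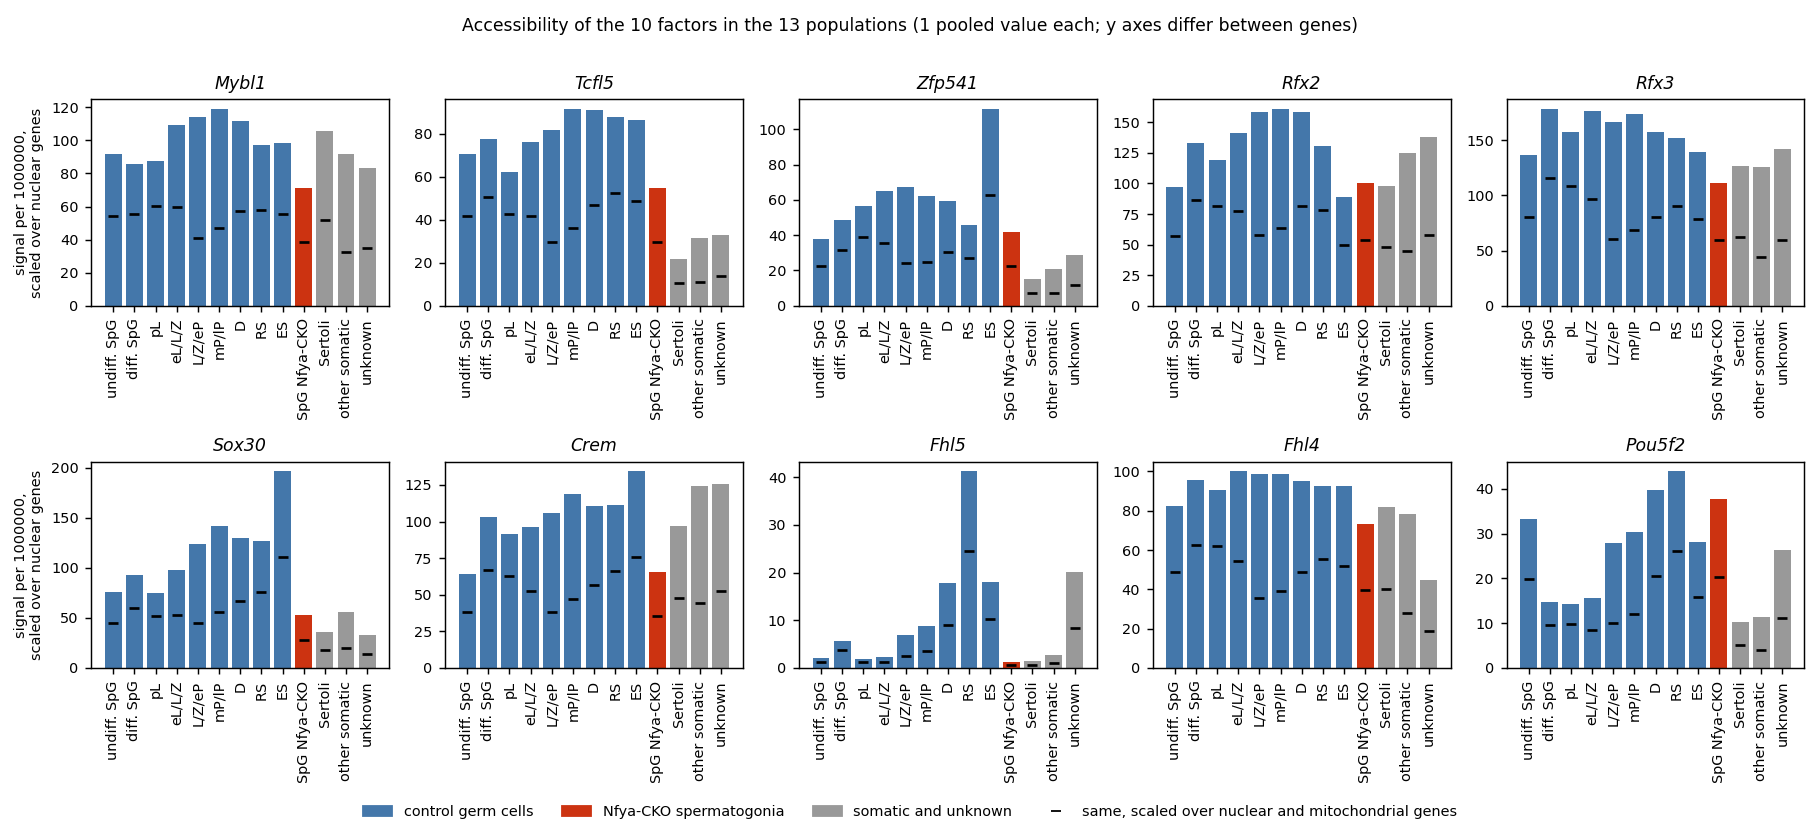
Accessibility of each member as signal per 1000000 (y axis, starting at 0 and different for each gene) in the 13 populations (x axis); bars are scaled over nuclear genes and black dashes over nuclear and mitochondrial genes, 1 pooled value each. *Fhl5* is the only member near 0 in spermatogonia, rising to 41.2 in RS, and the *Pou5f2* bars dip from differentiating SpG to eL/L/Z.

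The last comparison asks how these genes stood in the spermatogonia whose library is labelled *Nfya-CKO*. RNA of *Nfya* was not lower in them, at 1.11 against 0.456 in undifferentiated and 0.667 in differentiating SpG. A value per gene does not show whether the deleted part was read, so directions drawn here rest on the label. By western blot and immunohistochemistry, the paper reports NFYA depleted in germ cells of *Nfya-CKO* testes. The library with this label held 0 mP/lP and 0 RS scRNA-seq cells, against 1411 and 5639 in *Cre/+*. The 491 *Nfya-CKO* spermatogonia are from 8-week-old testis and the control undifferentiated SpG are 92.0% juvenile, so genotype and age cannot be told apart. Leydig cell markers summed to 47.2 in these cells, against 0.0847 in undifferentiated SpG, and *Zbtb16* was 4.15 against 8.74. Their part in the results was not tested.

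RNA of 9 of the 10 members was lower in *Nfya-CKO* spermatogonia than in undifferentiated SpG, against 49.1% of all genes, the exception being *Zfp541* (0.748 against 0.656). By size, only *Fhl4* was at least 2-fold lower (2.24-fold), 1 of 10 against 3.08% of all genes, and none was 2-fold higher, against 4.09%. *Mybl1* was 0.103 against 0.248 (1.71-fold lower), *Rfx2* 0.162 against 0.318 (1.59-fold lower), *Sox30* 0.0686 against 0.135 and *Pou5f2* 0.0417 against 0.109. *Crem* was 0.278 against 0.433, *Tcfl5* 0.967 against 1.34 and *Rfx3* 0.875 against 1.22, these last 3 each by under 1.5-fold. The median ratio of the members was 0.713, beside 1.01 for all genes.

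*Fhl4* (0.000667 against 0.125) and *Fhl5* (0.00301 against 0.0234) were close to single UMIs. The first equals 0.601 and the second 2.72 times what 1 UMI in a cell of median depth adds to this population's mean, so their folds depend on the pseudocount. Summed spermatid markers were 0.211 in *Nfya-CKO* spermatogonia and 0.802 in undifferentiated SpG, and the part of spermatid RNA in these differences was not tested.

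The choice of control mattered. Against differentiating SpG, 7 of the 10 members were at least 2-fold lower, against 10.5% of all genes, all but *Tcfl5* (1.55-fold lower), *Rfx3* and *Zfp541*. Those control cells hold the 143 *Cre/+* cells that share a barcode with an *Nfya-CKO* spermatogonium, and their spermatid markers summed to 11.6. Against pL, which had few spermatid markers (0.0545) and 0.114% of cells with fewer UMIs of a shared barcode, 1 of 10 was 2-fold lower, against 4.73% of all genes. That member was *Rfx2* (2.12-fold lower), followed by *Mybl1* (1.91-fold lower), while *Sox30* was 1.01-fold lower and *Zfp541* 1.15-fold higher.

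With all genes, accessibility was lower in *Nfya-CKO* spermatogonia than in undifferentiated SpG for 8 of the 10 members, against 52.6% of all genes. Scaled over nuclear genes, it was lower for 6 of 10, against 41.6%. TSS enrichment, a ratio of coverage at start sites over flanks, averaged 7.99 in *Nfya-CKO* spermatogonia, the lowest of the 13 populations. It was 12.7 in undifferentiated SpG, 15.1 in differentiating SpG and 14.8 in pL. The part of this in the accessibility differences was not tested. Against undifferentiated SpG, no member was 2-fold lower or higher under either scaling, against 0.44% and 1.58% of all genes with all-gene scaling and 0.76% and 4.43% with nuclear scaling. *Sox30* had 28.3 against 45.3 (0.633-fold), and lower values were also those of *Mybl1* (38.4 against 54.5, 0.710-fold), *Tcfl5* (29.6 against 41.8, 0.715-fold) and *Rfx3* (59.8 against 80.9, 0.743-fold). These 4, with *Fhl4* (39.5 against 49.0) and *Fhl5* (0.660 against 1.18), were lower under both scalings. *Rfx2* and *Crem* were lower only with all genes (0.941-fold and 0.936-fold), and *Zfp541* (1.01-fold) and *Pou5f2* (1.03-fold) were not lower under either. With all genes, *Sox30* (with 2 CCAAT words) had a 0.633-fold value among the 4 members with CCAAT in a promoter window. Of the others, *Fhl4* had 0.809-fold, *Fhl5* 0.761-fold and *Rfx2* 0.941-fold, the last being 1.03-fold with nuclear genes. Among the 4 whose windows have none, *Tcfl5* had 0.715-fold, *Rfx3* 0.743-fold, *Zfp541* 1.01-fold and *Pou5f2* 1.03-fold values with all genes. *Mybl1* (0.710-fold) and *Crem* (0.936-fold) had no window. Against differentiating SpG, *Fhl5* was over 2-fold less accessible under both scalings (2.85-fold with all genes) and *Sox30* with all genes (2.09-fold) but not with nuclear genes (1.75-fold), against 7.92% and 4.87% of all genes. *Pou5f2* was 2.01-fold more accessible with all genes and 2.46-fold with nuclear genes, against 9.28% and 17.1%. The *Fhl5* value in *Nfya-CKO* spermatogonia, 0.660 with all genes, lies below the pseudocount of 1. Most spermatid markers were also more accessible in differentiating than in undifferentiated SpG, and their part in these differences was not tested. Against pL, 9 of 10 members were less accessible under both scalings, against 52.8% of all genes with all-gene scaling and 38.5% with nuclear scaling, the exception being *Pou5f2* (20.3 against 9.86).

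**Figure D5:**
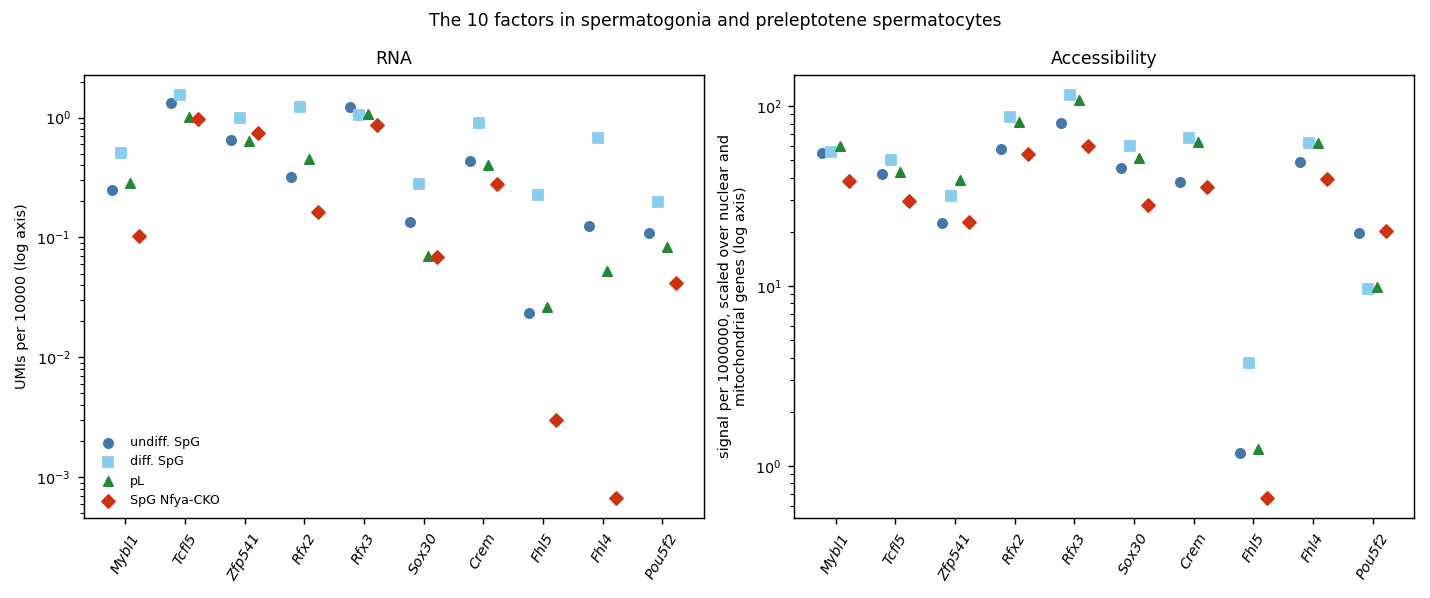
RNA in UMIs per 10000 (left) and accessibility in signal per 1000000 scaled over nuclear and mitochondrial genes (right), both on log axes, of each member (x axis) in undifferentiated SpG, differentiating SpG, pL and *Nfya-CKO* spermatogonia, 1 pooled value per point. The red points of *Fhl5* (0.00301) and *Fhl4* (0.000667) lie far below the other RNA values, while on the right the red points lie within 2-fold of undifferentiated SpG for every member.

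For each member, with those of *Rfx3* not reported here, the genes with the most similar RNA profile over the 9 control germ cell populations were found by Pearson r of log2 (value + 0.1) over the genes averaging 0.2 or more. They were *Itgb3bp*, *Zfp541* and *Pkd2l2* for *Mybl1* (r of 0.980 to 0.991), *Txnrd3*, *Tcp1* and *Pld6* for *Tcfl5* (0.973 to 0.986), and *Mybl1*, *Zufsp* and *Dpp8* for *Zfp541* (0.983 to 0.986). *Ift22*, a cilium transport gene, *Crat* and *Actr1a* were most like *Rfx2* (0.989 to 0.994). *Dnajb2*, *Ppp2r2b* and *1700030K09Rik* were most like *Sox30* (0.990 to 0.992), *4930590J08Rik*, *4930558K02Rik* and *1700012P22Rik* most like *Crem* (0.991 to 0.994), and *Gm8251*, *Fbxo2* and *Gm15756* most like *Fhl5* (0.994 to 0.996). *4933415F23Rik*, *Bspry* and *Hspb9* were most like *Fhl4* (0.993 to 0.995), and *Phospho2*, *Ak9* and *Fam186b* most like *Pou5f2* (0.964 to 0.974). Of 10385 genes compared, 321 reached an r of 0.95 with *Fhl5* and 219 with *Crem*, but 5 with *Tcfl5* and 3 with *Rfx3*. With Spearman's rho, or with all 13 populations, at most 1 of the 3 genes stayed among the nearest of any member.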

How the data were processed

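The authors prepared nuclei on the BD Rhapsody system. Per the paper's methods, scRNA-seq reads were aligned by the authors with STAR 2.7.10b to mm10, reads with the same UMI and coordinate were collapsed, and cells were filtered with Seurat 5.2.1. Fragments of scATAC-seq were aligned with bwa 0.7.12, shifted for the transposase insertion with bedtools 2.27.1 and filtered with ArchR 1.0.3. Both pipelines removed doublets. These versions are also in the submitters' processing notes. For each cell the authors deposited the UMI or fragment count, the percent of mitochondrial UMIs, and TSS enrichment, a ratio of coverage at start sites over flanks. Both matrices are deposited as natural logs: each value is ln(1 + mean), and the means of a population sum to 10000.

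The values were turned back with exp(value) - 1. In all 13 populations the mitochondrial percent of the RNA matrix equalled the mean over cells within 0.000001, so each cell has the same weight. Accessibility was scaled to 1000000 per population over nuclear and the 13 mitochondrial genes, or over nuclear genes. Ratios used a pseudocount of 0.1 for RNA and 1 for accessibility. Genes with a mean RNA of at least 0.05 over the populations were counted at 2-fold, and the named genes were the members, the 3 genes most like each, and partner, paralog and target lists. Motif letters were searched in RefSeq promoter windows. Counting was tested on simulated data. With 1 library per condition, no p-value was computed. The members and lists were chosen with earlier results of these data known. Libraries held 30227701 to 64967271 UMIs and 177596122 to 872964488 fragments. Python 3.11.15, numpy 2.4.6, pandas 2.3.3 and matplotlib 3.10.9 were used. 14 further columns of values per cell were not used. Alternatives covered pseudocounts, the fold, the filter, the scaling and the control population.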

Additional observations from a re-analysis of the deposited data

How the results depend on the processing

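No paired analysis was possible because every library is replicate 1 of its condition and no result comes from a test. Of the alternatives for counts of members, 19 stayed within 1.5 times the reported count and 9 did not. The count in mP/lP over L/Z/eP, 0 as reported, became 3 at 1.5-fold and 5 with eL/L/Z as the earlier population. The count lower in RS than in mP/lP, 2 as reported, became 1 with a pseudocount of 0.5 and 0 at 3-fold. The count lower in *Nfya-CKO* spermatogonia than in undifferentiated SpG, 1 as reported, became 4 with a pseudocount of 0.01, 0 with 0.5, 3 at 1.5-fold, 0 at 3-fold and 7 with differentiating SpG as the control. Of the other values (single-member ratios, shares of all genes and lists of most alike genes), 155 moved by at most 1.5-fold in the same direction, 62 moved further and 9 turned, all 9 of them ratios under 1.5-fold as reported. With nuclear scaling, accessibility log2 ratios of mP/lP over undifferentiated SpG became 0.37 (*Mybl1*), 0.37 (*Tcfl5*), 0.35 (*Rfx3*) and 0.25 (*Fhl4*), and those of *Nfya-CKO* over undifferentiated SpG 0.048 (*Rfx2*) and 0.039 (*Crem*). With differentiating SpG as the control, *Zfp541* became -0.47 in accessibility and -0.36 in RNA, and with eL/L/Z as the earlier population its RNA ratio of mP/lP became 0.91. Depth limits *Fhl4* and *Fhl5* in *Nfya-CKO* spermatogonia, where both lie near the level of single UMIs.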

Other observations

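Relatives of the members had profiles of their own. Of 15 paralogs past the limit for counting, 4 were at least 2-fold higher and 4 at least 2-fold lower in mP/lP than in undifferentiated SpG, against 13.9% and 20.8% of all genes. *Rfx4*, an RFX gene like *Rfx2*, was 2.09 in mP/lP against 0.121 in undifferentiated SpG and reached 3.02 in RS. *Rfx1* had its highest level in RS, as *Rfx3* did, at 0.811 in undifferentiated SpG, 0.266 in mP/lP and 1.66 in RS, while *Rfx7* was 2.78 in undifferentiated SpG and 0.867 in RS. *Sox5* and *Sox6*, SOX genes like *Sox30*, were 5.26-fold and 2.15-fold higher in RS than in mP/lP, and *Sox6* was also 2.33 in Sertoli cells. Among the CREB family, *Atf1* was 2.61-fold higher in mP/lP than in undifferentiated SpG, whereas *Creb1* was 1.35 in undifferentiated SpG and 0.381 in RS, where *Crem* was highest. Of the other LIM-only genes, *Fhl2* was 0.0334 in mP/lP and 0.0258 in undifferentiated SpG, whereas *Fhl1* and *Fhl3* were lower in mP/lP (0.0488 and 0.0102) than in undifferentiated SpG (0.351 and 0.158), opposite to *Fhl4*. Of the *Mybl1* relatives, *Mybl2* was 0.242 in undifferentiated SpG and 0.125 in mP/lP, and *Myb* was at most 0.0545 in any population.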
